A study of Mus musculus with 8 samples.

Results

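The 8 nonclassical major histocompatibility complex (MHC) class I genes were followed between liver tumors and primary pancreatic tumors of mice. These genes, H2-Q4, H2-Q6, H2-Q7, H2-Q10, H2-T22, H2-T23, H2-M3 and Cd1d1, were chosen by name. All 8 were found among the 52459 genes of the bulk count table and among the 31053 genes of both single-cell matrices. FC1242 is a mouse pancreatic cancer line, and 100000 cells of it were injected into C57BL/6 mice so that tumors grew either in the liver, as a model of metastasis, or in the pancreas. Tumors were taken after 3 weeks. Bulk RNA-seq covered 3 liver and 3 primary tumors, and 1 single-cell library per site was made from cells sorted for CD45, the pan-leukocyte surface protein. No group carried an added genotype or drug, all tumors came from this single line, and the labels give no sex, age, batch or pairing of mice. They also do not say whether the bulk libraries came from separate mice, so p-values measure the spread between these libraries.

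Class I molecules display short peptides or lipids at the cell surface and mostly pair with beta-2 microglobulin (B2m). The classical molecules H2-K1 and H2-D1 show peptides to CD8 T cells, while the nonclassical ones are less variable between mouse strains and have narrower ligands and receptors. Transcription of classical and several nonclassical genes is driven by NLRC5, by interferon through interferon-stimulated response elements, and by NF-kB. In the liver, hepatocytes secrete the product of H2-Q10 into blood, and CD1d presents lipids to the NKT cells of the liver sinusoids.

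The 7 H2 genes lie in the MHC on chromosome 17 (GRCm38), in the order H2-Q4 (35379617 to 35385290), H2-Q6 (35424850 to 35430055), H2-Q7 (35439155 to 35443773), H2-Q10 (35470089 to 35474563), H2-T23 (36029773 to 36032855), H2-T22 (36037128 to 36042747) and H2-M3 (37270220 to 37274484). Cd1d1 lies apart, on chromosome 3 at 86995834 to 86999441. The members resemble each other and other class I genes. Of all windows of 50 bases in the transcript, 44.7% were shared with another gene for H2-T22 (most with H2-T10), 39.2% for H2-Q4, 35.0% for H2-Q6 (13.95% with H2-Q7 and 12.33% with H2-Q4), 34.9% for H2-Q7 (most with H2-Q6), 29.8% for H2-T23 and 25.8% for Cd1d1 (with Cd1d2), against 8.03% for H2-Q10 and 0.576% for H2-M3. How the authors counted reads that match several genes is not stated in the sources used here, so levels of the first 6 are uncertain to that extent. In the last 300 bases, where 3′ single-cell reads fall, the share was 64.5% for H2-Q6, 56.2% for H2-T23, 49.4% for H2-T22 and 45.8% for H2-Q4, and 0 for H2-Q7, H2-Q10, H2-M3 and Cd1d1. All of the H2-T22 share there was with H2-T10. The genes that shared most were not class I genes for H2-Q6 (D10Wsu102e, 43.4%), H2-Q4 (Olfr365, 32.7%) and H2-T23 (Rab33b, 31.1%). H2-Q4 also overlaps the opposite-strand gene Gm11131, and H2-T22 and H2-T23 overlap A930015D03Rik. Without known strand in the bulk libraries these cannot be told apart.

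Promoters were compared because 3 neighboring Q genes diverged in the bulk data. The 250 bases before the RefSeq start (GRCm38.p6, plus strand, 5′ to 3′) are given for H2-Q4 (chr17:35379367-35379616), H2-Q6 (chr17:35424600-35424849) and H2-Q10 (chr17:35469839-35470088), with motif matches in capitals.
H2-Q4: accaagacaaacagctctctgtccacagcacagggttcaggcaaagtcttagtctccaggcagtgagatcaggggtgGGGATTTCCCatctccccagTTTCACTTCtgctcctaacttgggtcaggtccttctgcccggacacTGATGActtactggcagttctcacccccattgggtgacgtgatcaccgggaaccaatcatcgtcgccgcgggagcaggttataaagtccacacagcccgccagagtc
H2-Q6: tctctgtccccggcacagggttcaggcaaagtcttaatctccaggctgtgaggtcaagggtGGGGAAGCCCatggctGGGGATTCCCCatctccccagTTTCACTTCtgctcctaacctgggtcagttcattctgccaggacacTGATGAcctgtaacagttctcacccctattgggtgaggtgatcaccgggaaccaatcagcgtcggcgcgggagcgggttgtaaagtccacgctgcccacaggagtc
H2-Q10: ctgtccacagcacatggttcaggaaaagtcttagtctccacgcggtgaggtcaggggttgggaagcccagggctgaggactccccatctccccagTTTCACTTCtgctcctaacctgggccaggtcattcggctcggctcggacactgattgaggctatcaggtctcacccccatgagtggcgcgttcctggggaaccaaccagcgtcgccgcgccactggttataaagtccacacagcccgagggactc
The capitals mark an interferon-stimulated response element (GAANNGAAA, here on the opposite strand as TTTCACTTC), an NF-kB-like motif (GGGNNTNCCC) and a motif like the X2 box of class I promoters (TGATGA). Both strands were searched, and the letters were chosen after the sequences were seen. The response element in these letters stood in the windows of H2-Q4, H2-Q6, H2-Q7, H2-Q10 and H2-M3, and in 6.31% of 32851 promoters. The windows of H2-T22 and H2-T23 hold similar stretches with an added T (tttcactttc and tttctctttc) that the search did not count. A window without a match may thus still hold such an element. The NF-kB-like motif stood in those of H2-Q4, H2-Q6 and H2-Q7, and in 4.29% of all promoters. H2-Q6 holds 3 such matches, of which a pair overlap. The X2-like motif stood in those of H2-Q4, H2-Q6, H2-Q7, H2-T22 and H2-M3, and in 10.51% of all. H2-Q10, whose window is otherwise close to those of its neighbors, held the response element alone. Missing matches were not particular to it: the window of H2-K1 held no X2-like motif and that of B2m held none of these motifs. Any link of the motifs to levels was not tested.

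In bulk tumors 7 of the 8 genes rose in liver tumors and none fell, and the sizes differed widely: H2-Q10 and Cd1d1 stood far above the rest. Of all 16487 tested genes, 23% were called, 16.7% as higher and 6.26% as lower. All 8 members passed the filter on low counts at both sites. The tests were made with edgeR, and p-values were adjusted over all tested genes. In bulk tissue, more cells of a type and more RNA per cell cannot be told apart.

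H2-Q10 encodes a class I protein that hepatocytes secrete. It had 2422, 1657 and 1060 CPM (reads scaled to the TMM-adjusted library total) in the liver tumors, against 0.590, 0.520 and 1.17 CPM in the primary tumors. The groups were far apart: H2-Q10 alone made up 0.193%, 0.132% and 0.104% of liver reads, while the primary libraries held 24, 15 and 47 reads. The log2 change, liver minus primary, was 11.12 (SE 0.60, adjusted p = 7.84e-06). Cd1d1 encodes the lipid-presenting molecule CD1d. It had 159, 137 and 89.1 CPM in liver tumors, against 3.69, 1.94 and 3.63 CPM in primary tumors, with a log2 change of 5.37 (SE 0.36, adjusted p = 2.33e-05).

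The liver tumors also held transcripts of liver tissue. Their order over the liver libraries was that of H2-Q10 and Cd1d1, but also of H2-Q6, H2-Q7, H2-T22 and H2-T23. A list of 14 hepatocyte genes made up 10.12%, 9.93% and 6.71% of reads in liver libraries 1, 2 and 3, against 0.0180%, 0.0638% and 0.0426% in the primary libraries, and all 14 rose. Alb (serum albumin) had a log2 change of 12.19 (SE 0.87, adjusted p = 3.28e-05). Per 1000 reads of the hepatocyte list, H2-Q10 had 19.1, 13.3 and 15.4 reads in liver tumors, against 4.13, 0.856 and 3.33 reads in primary tumors. Cd1d1 had 1.25, 1.10 and 1.30 such reads in liver tumors, against 25.8, 3.19 and 10.33 in primary tumors. Relative to the reads of this list, H2-Q10 was thus higher in every liver library and Cd1d1 lower in every liver library. The list itself rose by a median log2 change of 10.86. Any gene that rises less than the list falls on this scale, whatever its source. The share of all genes that fall on it was not computed. In primary tumors these reads need not come from hepatocytes. Monocyte- or macrophage-like cells of the primary single-cell library had 897 CPM of the list, with 8 of its 14 genes at 0. The liver ones had 543 CPM. The comparison between sites is limited to that extent. Genes listed for resident liver cells rose too. All 8 genes of the Kupffer cell list (median log2 change 4.89) and all 9 of the sinusoidal endothelial list (median 4.16) rose, against a median of -0.066 over all tested genes. Such lists do not identify the cells. The sinusoidal list also had 793 CPM in liver and 1275 CPM in primary monocyte- or macrophage-like single cells. The part of each cell type in the rise of a member was not tested in bulk.

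**Figure D1:**
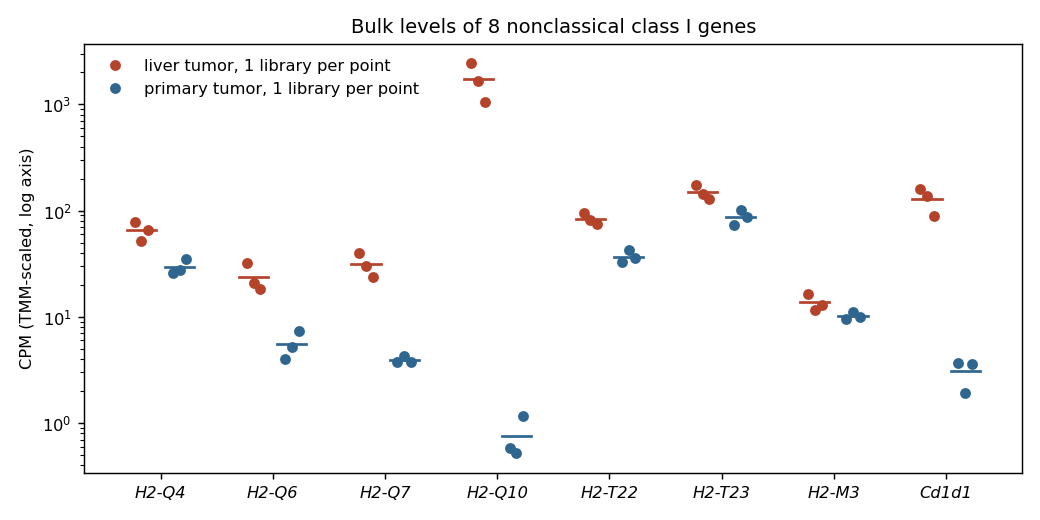
Bulk levels of the 8 genes in CPM (log axis) in liver tumors (left of each pair, red) and primary tumors (right, blue), 1 point per library with the mean as a bar. H2-Q10 spans from 2422 CPM in a liver tumor to 0.520 CPM in a primary tumor, and H2-M3 differs least.

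The Q-region genes H2-Q6 and H2-Q7 belong to the group that encodes Qa-2 antigens. H2-Q7 had 40.1, 30.1 and 23.6 CPM in liver tumors, against 3.79, 4.33 and 3.78 CPM in primary tumors (log2 change 2.98, SE 0.26, adjusted p = 9.82e-05). H2-Q6 had 32.2, 20.7 and 18.4 CPM in liver tumors, against 3.98, 5.27 and 7.44 CPM in primary tumors (log2 change 2.09, SE 0.33, adjusted p = 0.00261). Both were higher in every liver library than in any primary one. H2-Q4, a further Q-region gene, had 78.0, 51.8 and 66.0 CPM in liver tumors, against 25.9, 27.8 and 35.3 CPM in primary tumors (log2 change 1.14, SE 0.22, adjusted p = 0.00716), and its groups did not overlap either. The close copies H2-Q8 and H2-Q9 were not analysed here.

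The T-region genes changed less than H2-Q6 and H2-Q7, though H2-T22 changed about as much as H2-Q4. H2-T22, whose product is recognised by a set of gamma delta T cells, had 95.5, 81.6 and 75.2 CPM in liver tumors, against 32.9, 42.3 and 35.6 CPM in primary tumors (log2 change 1.19, SE 0.18, adjusted p = 0.00254). H2-T23 encodes Qa-1, which presents class I leader peptides to the receptor CD94/NKG2A of NK and CD8 T cells. It had 174, 143 and 128 CPM in liver tumors, against 72.9, 102 and 87.2 CPM in primary tumors (log2 change 0.77, SE 0.21, adjusted p = 0.0330). The groups did not overlap, but the call was lost without liver replicate 1 or 2 or primary replicate 1 or 3 (adjusted p up to 0.114) and when replicate numbers entered the fit as a block (adjusted p = 0.0509).

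H2-M3, which presents formylated peptides such as those of bacteria, was the member that was not called. It had 16.6, 11.7 and 12.95 CPM in liver tumors, against 9.54, 11.2 and 10.0 CPM in primary tumors (log2 change 0.42, SE 0.23, adjusted p = 0.220). Its liver libraries stood just above its primary ones in CPM. Of all tested genes, 23.8% had every liver library above every primary one.

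Levels can be set between genes on the authors' FPKM scale, which divides by gene length. In liver tumors H2-Q10 came first at 396 ± 158 FPKM (SD, n = 3), followed by H2-T23 at 51.5 ± 8.30 and Cd1d1 at 50.3 ± 14.4, which differed by less than their spread. H2-Q4 (25.2 ± 4.79 FPKM) and H2-T22 (24.7 ± 3.13) came next, and H2-Q6 (11.4 ± 3.54), H2-M3 (9.58 ± 1.71) and H2-Q7 (7.36 ± 1.97) were lowest. H2-Q6 and H2-M3 differed by less than the SD of H2-Q6, and H2-M3 and H2-Q7 by more than the SD of either. In primary tumors H2-T23 came first at 29.9 ± 5.01 FPKM (SD, n = 3). H2-Q4 (11.3 ± 1.75 FPKM) and H2-T22 (10.7 ± 1.46) did not differ beyond their spread there, and H2-Q10, at 0.173 ± 0.0757 FPKM, was last in every primary library.

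Leukocyte transcripts were also more abundant in liver tumors, and 14 of 15 pan-leukocyte genes rose. Among them was Ptprc, which encodes CD45 (log2 change 1.35, SE 0.20, adjusted p = 0.00228). The geometric mean of the 15 genes was 45.6, 51.8 and 46.0 CPM in liver tumors, against 23.9, 23.7 and 19.5 CPM in primary tumors. Members were therefore also tested with the libraries scaled to equal levels of these 15 genes. This moves the median log2 change of all tested genes to -1.17, with 74.4% of genes called, 9.16% as higher and 65.2% as lower. On that scale 4 members rose and none fell in edgeR: H2-Q10 (log2 change 9.98, SE 0.60), Cd1d1 (4.25, SE 0.37), H2-Q7 (1.88, SE 0.30, adjusted p = 0.000462) and H2-Q6 (0.97, SE 0.38, adjusted p = 0.0384). Scaled to Ptprc alone, H2-M3 was called lower (log2 change -0.85, adjusted p = 0.0471), beside 11316 of all 16487 genes. H2-Q6 was not called there (0.85, adjusted p = 0.0861). The call of H2-Q6 was also lost without liver replicate 1 (log2 change 0.64) or primary replicate 1 (0.73), and when replicate numbers entered as a block (adjusted p = 0.0522).

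Relative to leukocyte genes, the other members did not differ by the test. H2-Q4 had a log2 change of 0.027 (SE 0.28, adjusted p = 0.933) and H2-T22 one of 0.087 (SE 0.22, adjusted p = 0.732). H2-T23 (-0.34, SE 0.24, adjusted p = 0.222) and H2-M3 (-0.67, SE 0.29, adjusted p = 0.0561) were below 0, on a scale that lowers all genes alike. The median over all tested genes was -1.17 there. Per unit of the leukocyte genes' geometric mean, H2-M3 had 0.363, 0.225 and 0.282 in liver tumors, against 0.399, 0.473 and 0.513 in primary tumors, without overlap. The share of all genes without overlap on this scale was not computed. H2-M3 was called lower on this scale without liver replicate 1 (log2 change -0.86, adjusted p = 0.0417), beside 10290 of 17050 tested genes.

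**Figure D2:**
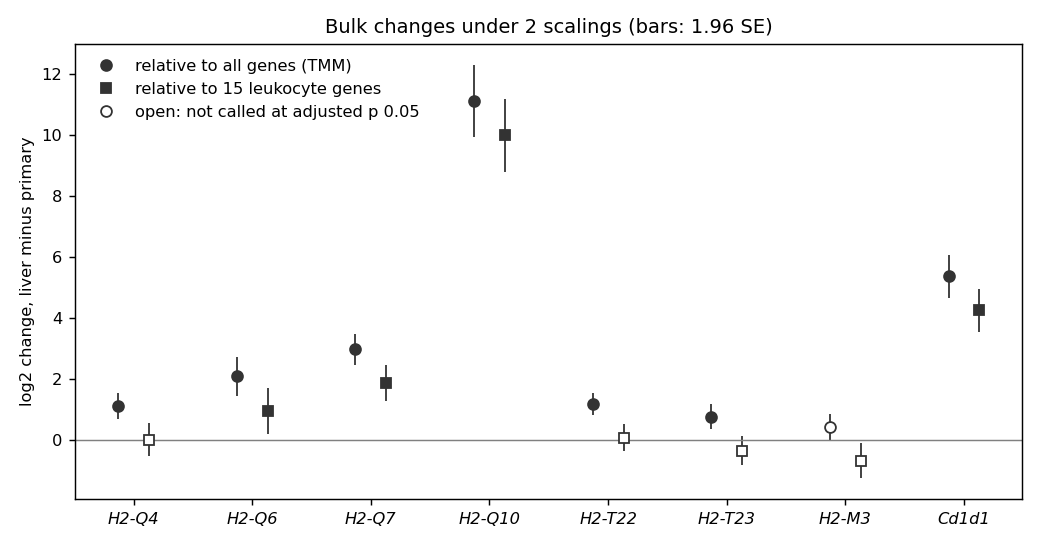
Log2 changes of the 8 genes in bulk tumors, liver minus primary, relative to all genes (circles) and relative to 15 leukocyte genes (squares), with bars for approximate 95% intervals from the SE and open symbols for genes not called. H2-Q10, Cd1d1, H2-Q7 and H2-Q6 stay above 0 on both scales, and the other 4 lie near or below 0 on the leukocyte scale.

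Of the classical genes H2-K1 and H2-D1 and their partner B2m, 2 of 3 rose. H2-K1 averaged 1323 ± 430 CPM in liver tumors and 432 ± 264 CPM in primary tumors (SD, n = 3 each; log2 change 1.61, adjusted p = 0.0423), and B2m averaged 2134 ± 491 CPM in liver tumors and 826 ± 302 CPM in primary tumors (1.37, adjusted p = 0.0252). H2-D1 (0.51, adjusted p = 0.449) did not pass, and its groups overlapped. Nlrc5, the class I transactivator, averaged 72.2 ± 8.37 CPM in liver tumors and 26.5 ± 6.93 CPM in primary tumors (SD, n = 3 each; log2 change 1.45, SE 0.23, adjusted p = 0.00307). Of 19 regulators of class I transcription, 5 rose, among them Irf8 (1.36) and the interferon signaling gene Stat2 (1.54), and 1 fell. The median log2 change of this list was 0.29, against -0.066 over all tested genes. None of these genes rose relative to the leukocyte genes: H2-K1, B2m and Nlrc5 had adjusted p-values of 0.295, 0.483 and 0.269 on that scale, and 0 of the 19 regulators were called higher and 10 lower, where 65.2% of all genes were lower.

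Of 29 other class I-like genes listed, 11 could be tested, 6 of which rose (median log2 change 1.33). Azgp1, which encodes a secreted zinc-binding glycoprotein, rose by 10.94 (SE 0.47), H2-Q1, another Q-region gene, by 6.76 (SE 0.77) and Hfe, a regulator of iron uptake, by 1.76 (SE 0.29). Of 13 peptide-loading and immunoproteasome genes 4 rose (median 0.40), such as the peptide-trimming Erap1 (1.75) and the immunoproteasome subunits Psmb8 (1.89) and Psmb9 (1.23). Of 11 genes of CD1d lipid loading 3 rose (median 0.15): Mttp, the lipid transfer protein that also builds lipoproteins in hepatocytes (3.95), the lysosomal lipid binder Gm2a (1.66) and the protease Ctsl (1.498). Of 11 tested genes of receptors and responding cells 4 rose (median 0.94), among them Klrd1, the CD94 chain of the receptor for Qa-1 (1.504), the inhibitory receptor Lilrb4a (1.02) and the NK receptor Klrb1c (1.93). No gene of these 4 lists was called lower on this scale. Relative to the leukocyte genes, 4 of the class I-like genes were called higher and 1 lower, 2 and 6 of the loading and immunoproteasome genes, 1 and 6 of the lipid-loading genes, and 1 and 0 of the receptor genes.

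The single-cell libraries were used to see which cells carry the members. They held 161890665 unique molecular identifiers (UMIs) in the liver library and 82083967 in the primary library, and left 7200 liver and 2146 primary cells with median depths of 6838 and 11837 UMIs. With 1 library per site there is no test, and intervals cover counting error only. Despite the CD45 sort, 2332 liver and 293 primary cells were epithelial tumor cell-like, and 1071 liver and 25 primary cells stayed unnamed. Leukocyte-like cells numbered 3680 in the liver library and 1801 in the primary library. The libraries shared 68 barcodes of at least 1000 UMIs, 6 of them among the cells kept.

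H2-Q10 was carried by neutrophil-like cells at both sites. These cells had 301 CPM in the liver library (337 UMIs in 502 cells, 95% Poisson interval 270 to 335) and 228 CPM in the primary library (147 UMIs in 219 cells, 193 to 269). Among the other classes with at least 50 cells, the highest level was 14.8 CPM, in T-like cells of the primary library. With each cell thinned to 1000 UMIs, 24.3% of liver and 19.6% of primary neutrophil-like cells had an H2-Q10 UMI. Before thinning the shares were 37.6% and 34.7%. Epithelial tumor cell-like cells, with median depths of 5616 UMIs in the liver library and 5276 UMIs in the primary library, had such a UMI in 1.84% and 3.07% of cells before thinning, and in 0.386% of liver cells and no primary cell after it.

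Albumin UMIs did not follow H2-Q10 across these cells. In the liver library, neutrophil-like cells held 337 H2-Q10 UMIs beside 19 Alb UMIs, while the 12 hepatocyte-like cells held 5 H2-Q10 UMIs beside 152 Alb UMIs. In the primary library, neutrophil-like cells held 147 H2-Q10 UMIs and 0 Alb UMIs. The liver over primary ratio of H2-Q10 CPM in these cells was 1.32 (95% interval 1.08 to 1.61). It did not hold in deeper cells: with at least 3000 UMIs per cell the level was 140 CPM in 65 liver cells and 194 CPM in 82 primary cells. Neutrophil-like cells had median depths of 2075 UMIs in the liver library and 2725 UMIs in the primary library.

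The 12 hepatocyte-like cells of the liver library were few and mixed. They held 34879 UMIs in all, with Alb in 10 cells, but also 3 Ptprc UMIs in 3 cells. H2-Q10 had 5 UMIs in 3 cells, or 143 CPM (95% interval 46.5 to 335). Cd1d1 had 0 UMIs, which allows up to 86.0 CPM (3 UMIs). This depth cannot show whether hepatocytes carry the Cd1d1 of the bulk liver tumors. The primary library held no hepatocyte-like cells.

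Cd1d1 was low in every leukocyte class with at least 50 cells, in both libraries. Smaller classes held too few UMIs to place it, such as 48728 in the 12 NK-like cells of the liver library. Dendritic-like cells had 23.01 CPM in the liver library (24 UMIs) and 20.8 CPM in the primary library (33 UMIs). T-like cells had 12.01 CPM in the liver library and 12.1 CPM in the primary library. Neutrophil-like cells had 1 UMI in the liver library and 0 in the primary library, and the 39 B-like cells of the liver library had 0 UMIs of 176055. Pooled leukocyte-like cells had 12.1 CPM in the liver library and 10.8 CPM in the primary library, a ratio of 1.12 (95% interval 0.956 to 1.30), beside the 41.4-fold difference in bulk tumors. H2-M3 had 69.0 CPM in dendritic-like cells of the liver library and 58.1 CPM in those of the primary library. Cluster 6, which is monocyte- or macrophage-like, had 79.9 CPM of it in liver and 74.9 CPM in primary cells. Neutrophil-like and epithelial tumor cell-like cells had 9.32 CPM or less in both libraries.

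The Q-region genes H2-Q6 and H2-Q7 had their highest levels in T-like cells. H2-Q7 had 629 CPM there in the liver library (576 UMIs) and 578 CPM in the primary library (856 UMIs), with a ratio of 1.09 (95% interval 0.978 to 1.21). H2-Q6 had 161 CPM in T-like cells of the liver library and 219 CPM in those of the primary library, with a ratio of 0.734 (0.600 to 0.895). Most T-like cells came from different clusters at the 2 sites: one pair of clusters held 60 and 44 of the 138 liver cells, and another pair held 45 and 26 of the 111 primary cells. In NK-like cells, of which the liver library held 12, H2-Q7 had 26 UMIs, or 534 CPM.

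H2-T23 had 217 CPM in dendritic-like cells of the liver library and 311 CPM in those of the primary library. The monocyte- or macrophage-like clusters 6 and 11 had 228 and 119 CPM in the liver library and 321 and 368 CPM in the primary library. H2-T22 was spread more evenly, from 41.1 CPM in neutrophil-like to 135 CPM in T-like cells of the liver library, and from 48.2 to 136 CPM in the same classes of the primary library. H2-Q4 ranged from 23.1 CPM in epithelial tumor cell-like to 123 CPM in T-like cells of the liver library, and from 76.1 to 136 CPM in the same classes of the primary library.

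**Figure D3:**
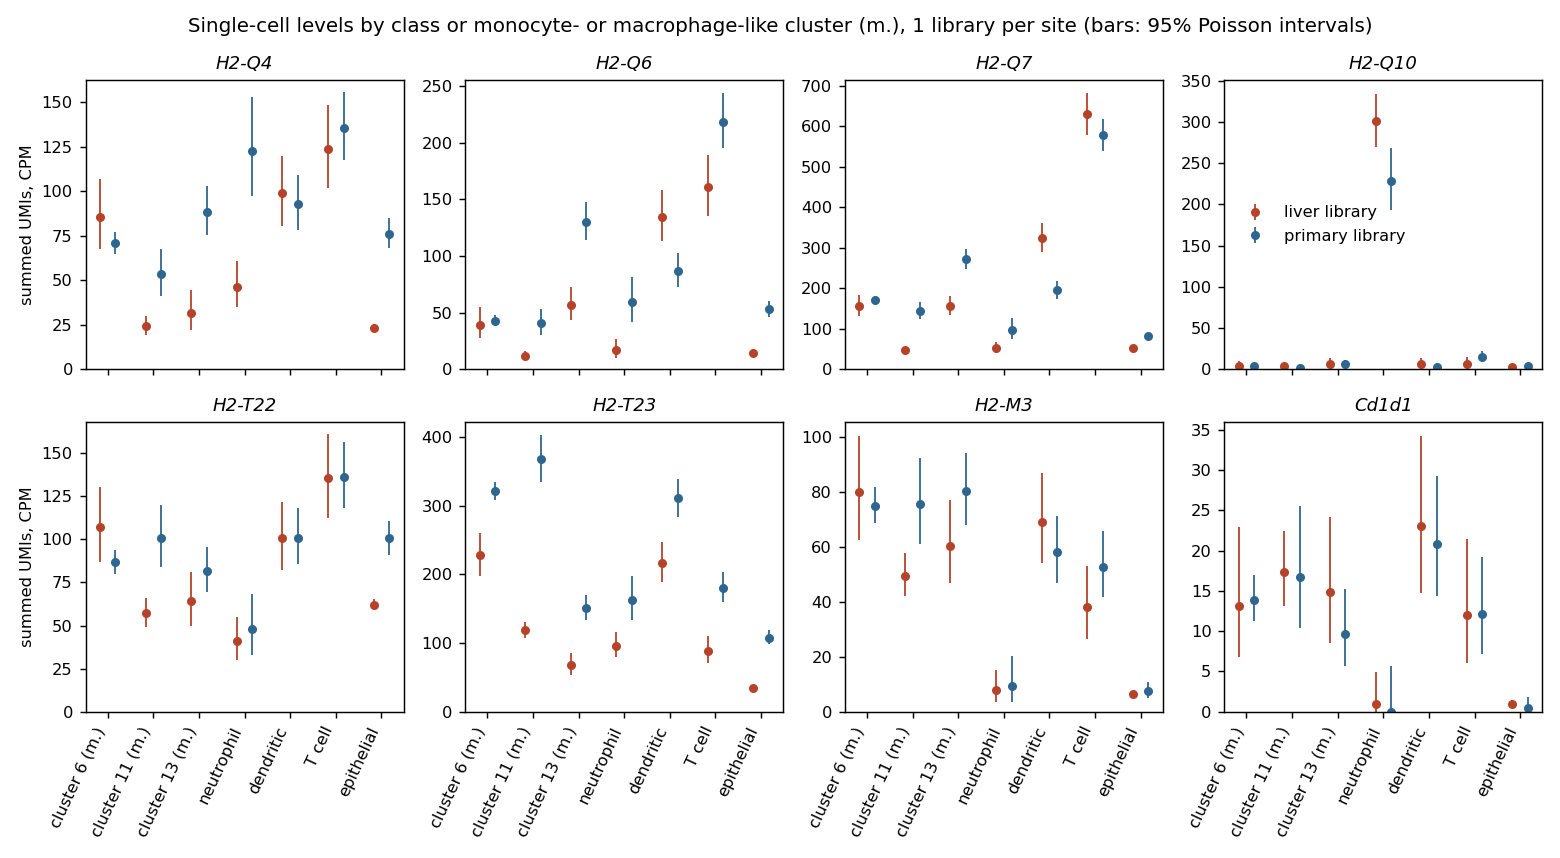
Summed UMIs of the 8 genes in CPM (linear axes from 0) in 4 cell classes and 3 monocyte- or macrophage-like clusters (marked m.), liver library (left, red) and primary library (right, blue), with 95% Poisson intervals for counting error. H2-Q10 stands at 301 and 228 CPM in neutrophil-like cells and near 0 elsewhere, and H2-Q7 is highest in T-like cells.

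In pooled leukocyte-like cells most members were lower in the liver library, while single classes and clusters varied, with 1 to 6 members below 1 in the 4 classes and 3 clusters described here. In pooled leukocyte-like cells the interval of the liver over primary ratio lay below 1 for 6 members and above 1 for 1, beside 40.8% and 35.8% of 11256 genes with at least 100 UMIs. Shares of all genes given below for a class or cluster use the same minimum within it, which some members did not reach there. The ratio was 0.266 for H2-Q6 (21.9 CPM in liver, 82.2 in primary cells), 0.375 for H2-Q4 (34.7 and 92.6), 0.400 for H2-Q7 (82.4 and 206), 0.433 for H2-T23 (100.1 and 231), 0.662 for H2-T22 (61.7 and 93.3) and 0.752 for H2-M3 (54.6 and 72.7). H2-Q10 was above 1 at 1.18 (491 UMIs in liver and 268 in primary cells). B2m (0.620), H2-K1 (0.693) and H2-D1 (0.842) were below 1 as well.

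These pooled ratios depend on which cells each library holds. Cluster 4, a monocyte- or macrophage-like cluster led by Pde4b and Tgfb3 with a neutrophil marker among its leading genes, held 23 liver and 693 primary cells. Without it the H2-Q10 ratio was 0.896 (0.763 to 1.05), and 6 members were below 1 and none above, beside 44.7% and 27.8% of all genes. Without all monocyte- or macrophage-like cells, 4 members were below 1 and 1 above, beside 23.2% and 21.1% of all genes. H2-Q7 then had a ratio of 0.954 (0.878 to 1.04) and H2-Q10 one of 2.31 (1.93 to 2.79).

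Monocyte- or macrophage-like cells were compared within the 3 clusters that held at least 50 cells of each library. In cluster 11, led by Ltc4s and Cd5l (277 liver and 89 primary cells), 6 members had ratios below 1, beside 23.8% of all genes, such as H2-T23 (119 CPM in liver, 368 in primary cells, ratio 0.323) and H2-Q7 (46.8 and 144, ratio 0.325). In cluster 13, with Nos2 among its leading genes (119 liver and 148 primary cells), 4 were below 1, beside 26.8% of all genes, with H2-Q7 at 0.575. In cluster 6, led by the interferon-inducible Cxcl9 and Gbp2b (87 liver and 373 primary cells), H2-T23 alone was below 1, beside 19.2% of all genes (228 CPM in liver, 321 in primary cells, ratio 0.708), and H2-Q7 had 155 CPM in liver and 170 CPM in primary cells (0.914, 0.762 to 1.09). No member was above 1 in clusters 11, 13 and 6, where 23.6%, 18.2% and 11.6% of all genes were. The differences between clusters were not tested.

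Neutrophil-like cells had ratios below 1 for H2-Q4 (0.378), H2-Q6 (0.287), H2-Q7 (0.538) and H2-T23 (0.591), and above 1 for H2-Q10, beside 29.5% of all genes below 1 and 30.1% above. T-like cells had ratios below 1 for H2-Q6 and H2-T23 (0.489) and above 1 for no member, beside 19.2% below and 13.8% above. Epithelial tumor cell-like cells had 6 members below 1 and none above, beside 31.5% and 21.8% of all genes, among them H2-Q6 (14.1 CPM in liver, 52.8 in primary cells, 0.267), H2-Q4 (23.1 and 76.1, 0.304) and H2-T23 (35.0 and 108, 0.325). In these cells cluster 1 held 1048 of 2332 liver cells but 10 of 293 primary cells. Within the 4 epithelial clusters with at least 50 cells of each library, H2-T22 alone of the members had intervals below 1 in each. Its ratios there were 0.556 to 0.636. B2m was below 1 in each as well, at 0.435 to 0.601. Shares of all genes were not computed for these clusters. H2-Q4 was below 1 in cluster 10 (0.338), and its intervals included 1 in clusters 8, 9 and 12. H2-Q6 and H2-T23 were below 1 in clusters 8, 10 and 12, and their intervals included 1 in cluster 9.

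In dendritic-like cells 2 members were above 1 and 1 below, beside 17.1% and 17.9% of all genes. H2-Q7 had 324 CPM in the liver library (338 UMIs in 126 cells) and 194 CPM in the primary library (308 UMIs in 59 cells), a ratio of 1.67 (95% interval 1.42 to 1.95). H2-Q6 had 134 CPM in the liver library and 86.5 CPM in the primary library, a ratio of 1.55 (1.22 to 1.98). H2-T23 was below 1 at 0.697 (0.593 to 0.818), and the intervals of the other 5 members included 1. Cluster 16, led by Xcr1 and Itgae, held 95 liver and 55 primary cells of this class, and cluster 21, led by Ccr7 and Fscn1, held 31 liver and 4 primary cells. Ratios within cluster 16 were not computed. Median depths of the class were 7612 UMIs in the liver library and 24684 UMIs in the primary library.

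**Figure D4:**
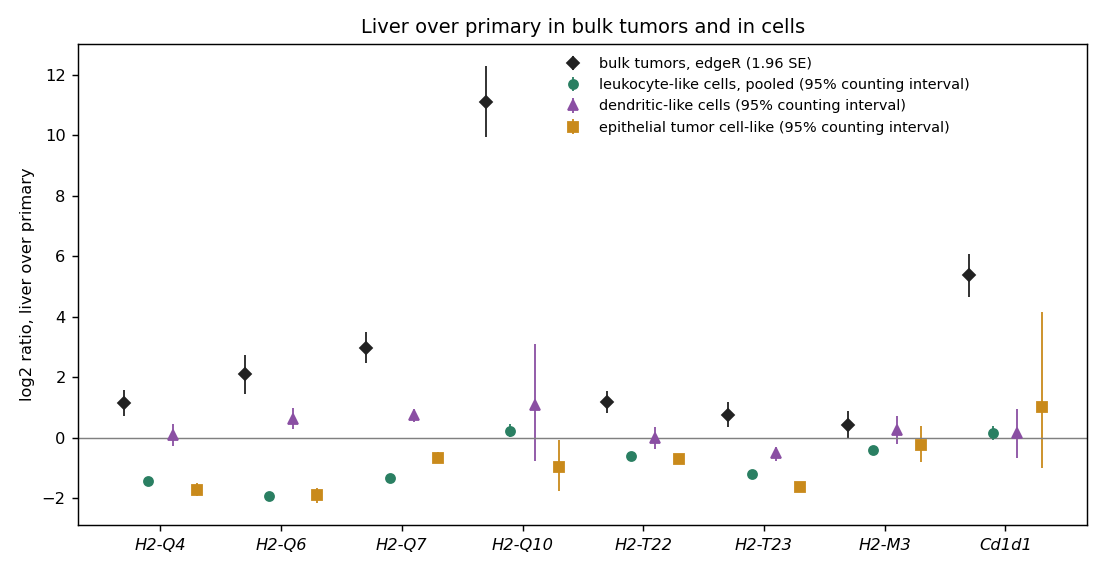
Log2 ratios of liver over primary for the 8 genes in bulk tumors (diamonds, approximate 95% intervals from the SE), pooled leukocyte-like cells (circles), dendritic-like cells (triangles) and epithelial tumor cell-like cells (squares), the last 3 from 1 library per site with 95% counting intervals. Bulk values lie above 0 for all members, while pooled leukocyte-like cells lie below 0 for 6 of them.

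The genes most like each member were named by the correlation of log2(CPM + 10) over the 11 class-by-library sums with at least 50 cells, which come from only 2 libraries. H2-Q10 was most like Asprv1, Nlrp12 and Gm17619 (Pearson r of 0.98 each). H2-Q6 and H2-Q7 were each other's nearest (0.97), and H2-Q6 was also near Aebp2 and Crem while H2-Q7 was also near Foxred2 and Aebp2. Cd1d1 was most like Phf11b, Irf8 and Tyk2 (0.97 to 0.98), and H2-M3 like Ifi209, Phf11b and Dusp22 (0.96 to 0.97). H2-T22 was most like Zfp280d, Asxl2 and Taf1d, H2-T23 like Eps15, Ppp3r1 and Fbrsl1, and H2-Q4 like Mllt6, Kmt2d and Cdk13 (0.94 to 0.98). Nlrc5 had 17.9 CPM in pooled leukocyte-like cells of the liver library and 32.8 CPM in those of the primary library.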

How the data were processed

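The authors deposited bulk tables of raw read counts and of FPKM per gene, and UMI counts for all barcodes of 2 single-cell libraries. Per the submitters' processing notes, bcl2fastq and Cell Ranger were used with mm10; the bulk aligner, counting rule and strandedness are not given in the sources used here, and the 3′ kit version named in the labels was not settled against the barcode list. Bulk libraries held 27481390 to 36743247 reads. filterByExpr kept 16487 genes. Differential expression was computed by the two-sided quasi-likelihood test of edgeR 4.0.16 under R 4.3.3 (TMM normalization, robust dispersion, group as the only term), and p-values were Benjamini-Hochberg adjusted at 0.05. The second fit scaled libraries to the geometric mean of 15 leukocyte genes. Fold changes are liver over primary. The TMM fit was tested on simulated data, and the leukocyte-scaled fit was not.

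Libraries of the same replicate number did not all deviate together (Pearson r of -0.18, 0.25 and 0.093), so they were not treated as paired.

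Cells had at least 1500 UMIs, 200 genes and at most 10% mitochondrial UMIs (39.1% of liver and 58.5% of primary barcodes with that many UMIs exceeded it). Scrublet's own threshold marked 1 liver and 5 primary cells, so the 6% with the highest scores in each library were removed, 418 and 131 cells, a cutoff set after seeing the data. Cells were clustered together with scanpy 1.11.5 and leidenalg 0.10.2 on 1997 variable genes, leaving out the members and the classical class I genes. Clusters were named from marker lists by the mean fold over the lower quartile of clusters, a reference also set after seeing the data. The members are described with 100 UMIs as the minimum of the comparison over all genes, 95% exact Poisson, Clopper-Pearson and conditional binomial intervals, and a floor of 3 counts at 0. The monocyte- or macrophage-like class was not compared between sites as a whole, since in 1 of its clusters a neutrophil marker was the only marker among the leading genes. Sequences come from RefSeq (GRCm38.p6), which gave 7 of the 8 promoters. The members and lists were chosen with earlier results of these data known. Named genes were the members, H2-K1, H2-D1, B2m, Ptprc, Alb and Nlrc5, up to 3 called genes of each other list by p-value, and the 3 genes most like each member.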

Additional observations from a re-analysis of the deposited data

Results flagged for a closer look

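For 3 members the liver over primary ratio lay on opposite sides of 1 in different cell classes, each class from 1 library per site; the differences between classes were not tested. H2-Q6 had a ratio of 1.55 in dendritic-like cells, but 0.287 in neutrophil-like, 0.734 in T-like and 0.267 in epithelial tumor cell-like cells. H2-Q7 had a ratio of 1.67 in dendritic-like cells, but 0.538 in neutrophil-like and 0.635 in epithelial tumor cell-like cells. H2-Q10 had a ratio of 1.32 in neutrophil-like cells and 0.515 in epithelial tumor cell-like cells, the last from 52 liver and 17 primary UMIs. In neutrophil-like cells of at least 3000 UMIs, H2-Q10 was lower in the liver library (140 CPM) than in the primary library (194 CPM).

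Barcodes of at least 500 but fewer than 1500 UMIs, which were not used as cells, numbered 70083 in the liver library and 16871 in the primary library and carried members too. H2-Q4 had 21.98 CPM there in the liver library and 17.4 CPM in the primary library. H2-Q10 had 7.34 CPM in the liver library and 3.49 CPM in the primary library. H2-T22 had 50.3 CPM in the liver library and 25.2 CPM in the primary library, and H2-T23 had 63.3 CPM in the liver library and 28.9 CPM in the primary library. H2-Q6 was lower in the liver library (736 of 52558884 UMIs) than in the primary library (293 of 13474269 UMIs), while intervals overlapped for H2-Q7 (56.9 CPM in liver, 54.1 in primary), H2-M3 (16.1 and 14.5) and Cd1d1 (3.23 and 2.37). Alb had 52.4 CPM in the liver library and 0.297 CPM in the primary library. Which primary barcodes are compared matters: the range of at least 100 but fewer than 500 UMIs held 59581 primary barcodes. There H2-Q4 had 24.9, H2-T22 50.1, H2-T23 59.0 and Cd1d1 4.05 CPM, with intervals overlapping those of their liver values above. H2-Q10 (4.55 CPM) and Alb (0.249 CPM) were still below their liver values. H2-Q6 (38.9 CPM), H2-Q7 (107 CPM) and H2-M3 (28.0 CPM) were above theirs. Whether the ranges hold like barcodes was not tested.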

How the results depend on the processing

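Against all genes, 6 or 7 members were called higher and none lower under every alternative run (other normalizations, DESeq2, limma-voom, limma on log2 FPKM, other filters, each library left out). With the replicate number as a block, where libraries share only a number, 6 members were called higher in place of 7 and, on the leukocyte scale, 3 in place of 4. Leaving out each library gave 6 to 7 and 3 to 4. The count of all genes called lower was 1032, but 1567 in DESeq2 and 134 without liver replicate 2, 414 without liver replicate 1 and 606 without primary replicate 3. That called higher was 2755, but 1810 of 17019 without liver replicate 2. On the leukocyte scale, H2-Q4 and H2-T22 turned below 0 when scaled to Ptprc alone (-0.14 and -0.093), and ranged from -0.15 to 0.29 and from -0.052 to 0.16 with each library left out. Scaled to the Kupffer cell list, which rose itself by a median of 4.89, 1 member (H2-Q10) was called higher and 6 lower, and 354 of all genes higher and 15660 lower, against 1511 and 10752. H2-Q4 (-5.43), H2-Q6 (-4.57), H2-Q7 (-3.52), H2-T22 (-5.27) and Cd1d1 (-1.36) turned below 0 there. In pooled leukocyte-like cells the count of members above 1 was 0 in place of 1 with at least 3000 UMIs per cell, and 0 without cluster 4 and without neutrophil-like cells, alternatives chosen after seeing the data, as was leaving out monocyte- or macrophage-like cells (4 below 1, 1 above). The count below 1 was 6 or 7 with the other cell filters, namings and doublet treatments. Depth limits Cd1d1 in hepatocyte-like cells, where 0 UMIs allow up to 86.0 CPM.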
